A study of Mus musculus with 4 samples.

Results

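The genes of chemokines, interleukins and their receptors were examined for binding of NFIC, a transcription factor of the nuclear factor I (NFI) family, in mouse pancreas. Members were all peaks whose assigned gene has a name that begins with *Ccl*, *Ccr*, *Cxcl*, *Cxcr* or *Il* followed by a digit. No measured value enters this rule, which was chosen with earlier results of these data known. The rule found 61 of the 15824 NFIC peaks. They are assigned to 39 of the 137 protein-coding genes of RefSeq that the same rule finds. Each gene was placed by its protein as a ligand (73 genes), a receptor chain (58 genes) or other (6 genes, which are antagonists, binding proteins and enzymes).

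The series comprises 3 libraries of chromatin precipitated with an anti-NFIC antibody and 1 library of input DNA, all from whole pancreas of untreated wild-type mice. The animals were 8 to 10 or 8 to 12 weeks old, depending on the description, and their strain is labelled "Mixed". The colony had a predominant C57BL/6 background, and both sexes were used. The authors deposited 1 merged peak list on build mm10, in which every peak is 173 bp wide and is assigned to the gene with the nearest transcription start site (TSS), without values for single libraries. Therefore no spread between replicates can be given, the depth is unknown, and no test was run. Intervals below are 95% Wilson intervals of shares or order-statistic intervals of medians, and cover counting error only. Those over peaks treat peaks of the same gene as independent, so they may be too narrow. A peak in whole pancreas cannot be attributed to acinar, duct, islet, stromal or immune cells, a peak list gives no expression by which the tissue label could be checked, and the nearest gene need not be the gene that a site acts on.

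Chemokines are small secreted proteins that direct the migration of leukocytes through G protein-coupled receptors of the CCR and CXCR groups. Interleukins signal through receptor chains at the cell surface, many of which are shared between several interleukins and pass the signal to JAK kinases and STAT factors, while the IL-1 and IL-17 receptor families use adaptor proteins such as MYD88 and TRAF3IP2. In the pancreas, these signals pass between acinar, duct, stromal and immune cells and are best known for their part in pancreatitis. NFI proteins bind as dimers to a palindrome, in which the arms TGGC and GCCA are separated by a spacer.

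Some of the peaks with high scores or close to a TSS are shown first as sequence, since their NFI sites are referred to below. All sequences are the plus strand of GRCm38, the assembly behind mm10, without the part of a peak that overlaps an annotated exon. Capitals mark the arms of each match to TGGCNNNNNGCCA with no more than 1 mismatch in the 8 fixed positions. The peak in intron 1 of *Il6* and the promoter peak of *Il33* stand for the ligands, both peaks of *Il10rb* and the intron 1 peaks of *Il17rd* and *Il6ra* for the receptors, and the last of these is shown because it has the highest score of the family but no such match. Not shown are the ligand peaks of *Cxcl17* at -17727 bp (score 15.3) and *Cxcl13* at +52287 bp (14.5). Both score above that of *Il33* (11.0) and have no match.
Il6 +164, chr5:30013211-30013320: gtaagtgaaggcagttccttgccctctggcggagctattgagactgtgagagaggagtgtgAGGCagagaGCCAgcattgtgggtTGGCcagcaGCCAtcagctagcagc
Il33 -85, chr19:29924942-29925112: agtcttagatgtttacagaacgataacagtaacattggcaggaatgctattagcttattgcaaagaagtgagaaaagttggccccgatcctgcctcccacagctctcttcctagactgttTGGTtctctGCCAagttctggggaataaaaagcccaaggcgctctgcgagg
Il10rb -336, chr16:91405813-91405985: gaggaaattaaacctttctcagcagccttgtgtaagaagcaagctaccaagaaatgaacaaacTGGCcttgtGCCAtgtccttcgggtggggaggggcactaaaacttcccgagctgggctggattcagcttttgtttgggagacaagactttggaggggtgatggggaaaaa
Il10rb +1921, chr16:91408070-91408242: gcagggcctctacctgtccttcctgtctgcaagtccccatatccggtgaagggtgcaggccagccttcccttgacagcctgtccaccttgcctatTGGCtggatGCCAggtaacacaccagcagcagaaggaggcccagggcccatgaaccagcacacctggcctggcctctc
Il17rd +33224, chr14:27072139-27072311: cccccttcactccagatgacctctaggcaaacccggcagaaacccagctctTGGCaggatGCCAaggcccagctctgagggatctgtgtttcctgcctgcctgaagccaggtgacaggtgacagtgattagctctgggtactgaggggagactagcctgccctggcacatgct
Il6ra +11509, chr3:89901601-89901773: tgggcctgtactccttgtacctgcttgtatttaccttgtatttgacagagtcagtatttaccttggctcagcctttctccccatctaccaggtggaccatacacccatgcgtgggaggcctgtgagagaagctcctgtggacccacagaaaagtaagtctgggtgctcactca

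Fewer of the chemokine genes than of the interleukin receptor genes had a peak. Of 54 chemokine ligand and receptor genes, 10 had one (18.5%, 10.4 to 30.8), beside 35.7% of all 21883 protein-coding genes (7806). Among the 37 chemokine ligands these were 7 genes (18.9%, 9.48 to 34.2), and among the 17 chemokine receptors 3 genes (17.6%, 6.19 to 41). Of the 36 interleukins, 11 had a peak (30.6%, 18 to 46.9). Of the 41 interleukin receptor genes, 17 did (41.5%, 27.8 to 56.6). All ligands together reached 24.7% (18 of 73, 16.2 to 35.6) and all receptors 34.5% (20 of 58, 23.6 to 47.3). The intervals of ligands and receptors overlap, as do those of the 54 chemokine genes and the interleukin receptor genes. The share of all genes lies within the interval of receptors, just above that of ligands and above that of the 54 chemokine genes together. It is just above the interval of the chemokine ligands and within that of the chemokine receptors.

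**Figure D1:**
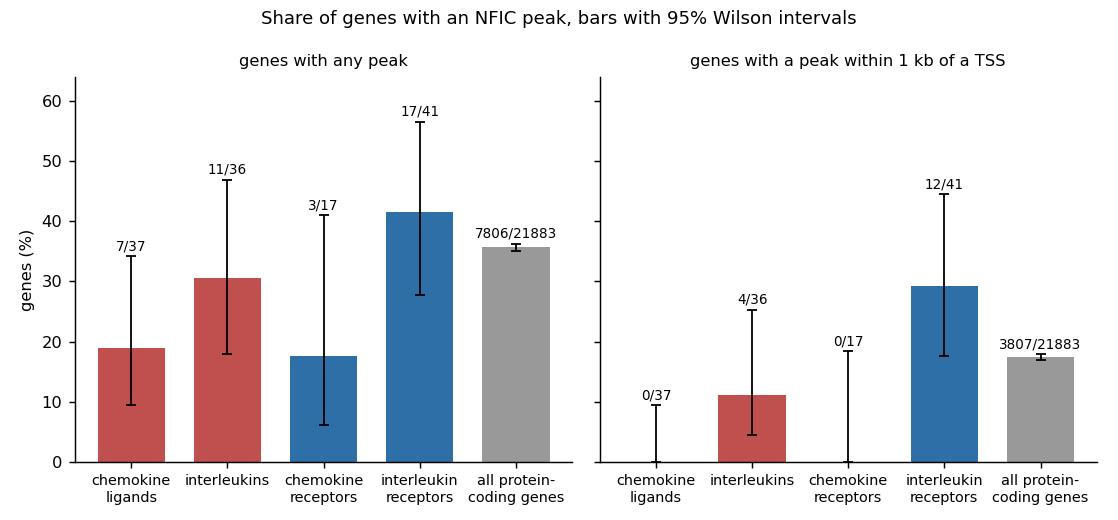
Share of genes (%) with any NFIC peak (left) and with a peak within 1 kb of a TSS (right), for chemokine ligands, interleukins, chemokine receptors, interleukin receptors and all protein-coding genes. Bars give the share, lines the 95% Wilson interval, and the fractions the number of genes with a peak and in all. Chemokine genes had no peak within 1 kb, whereas 12 of 41 interleukin receptor genes did.

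Most of the family genes with a peak close to a TSS were interleukin receptor genes. A peak within 1000 bp of the TSS was found at 12 of the 58 receptor genes (20.7%, 12.3 to 32.8) and at 4 of the 73 ligand genes (5.48%, 2.15 to 13.3), beside 17.4% of all protein-coding genes. The share of all genes lies within the interval of receptors and above that of ligands, and these intervals overlap slightly. All 12 receptors are interleukin receptor chains, and all 4 ligands are interleukins. None of the 54 chemokine ligand and receptor genes had such a peak (0%, 0 to 6.64). In the promoter, taken as -1000 bp to the TSS, peaks were listed for 8 receptor genes (13.8%, 7.16 to 24.9) and 3 ligand genes (4.11%, 1.41 to 11.4), beside 10.3% of all genes. Here the share of all genes lies within both intervals, which overlap. The 8 receptors are *Il6ra*, *Il10rb*, *Il13ra1*, *Il15ra*, *Il17rb*, *Il17rd*, *Il1r1* and *Il22ra1*, and the 3 ligands are *Il7*, *Il15* and *Il33*. Counting every annotated TSS in the window, instead of the assigned gene alone, gave the same counts.

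Counted over peaks, 12 of 33 receptor peaks lie within 1000 bp of the TSS (36.4%, 22.2 to 53.4) and 4 of 27 ligand peaks (14.8%, 5.92 to 32.5), beside 27.4% of all peaks. The share of all peaks lies between these values and within both intervals, which overlap. The median absolute distance was 6672 bp for receptor peaks (336 to 24877) and 14615 bp for ligand peaks (4250 to 27721), against 10438 bp over all peaks. Between 10 and 100 kb from the TSS, there were 15 ligand peaks (55.6%, 37.3 to 72.4) and 11 receptor peaks (33.3%, 19.8 to 50.4), beside 43.3% of all peaks, a share within both intervals. By genomic class, 9 receptor peaks (27.3%) and 3 ligand peaks (11.1%) are promoter-TSS, which in this annotation runs from -1000 to 100 bp, against 20.7% of all peaks. Introns hold 12 receptor peaks (36.4%) and 12 ligand peaks (44.4%), against 40.8% of all. Intergenic positions account for 10 receptor peaks (30.3%) and 11 ligand peaks (40.7%), against 30.6%. Of the 24 intronic peaks, 19 lie in the gene they are assigned to, 11 of these in its first intron, and 5 lie in an intron of another gene. Upstream positions made up 42.6% of the peaks of the family and 44.5% of all peaks.

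**Figure D2:**
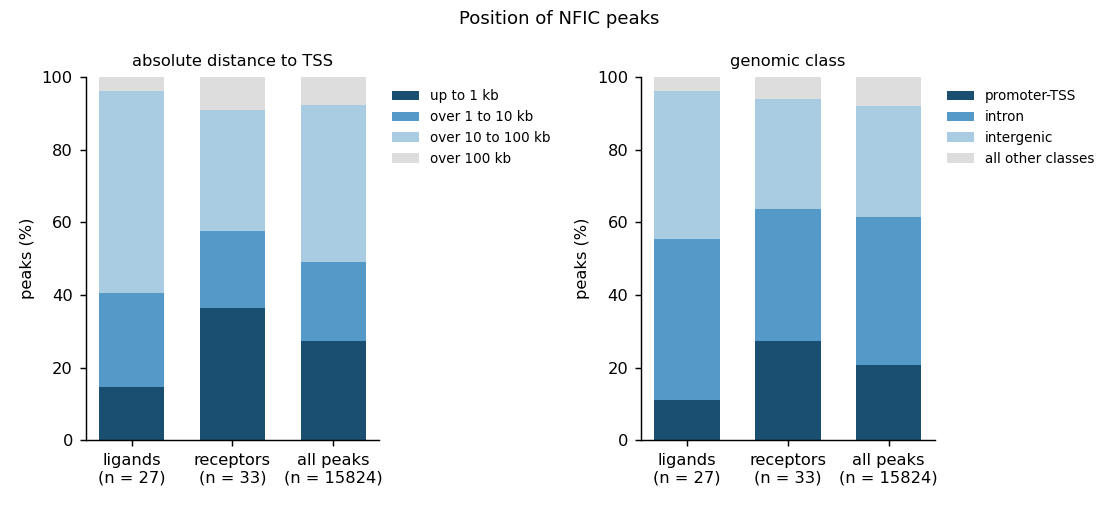
Share of peaks (%) by absolute distance to the TSS (left) and by genomic class (right) for ligand peaks (n = 27), receptor peaks (n = 33) and all peaks (n = 15824). The darkest segment on the left is the share within 1 kb, 14.8% for ligands, 36.4% for receptors and 27.4% for all peaks.

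Peak scores of ligands and receptors covered nearly the same range. The score is the deposited value for each peak on a scale that the sources used here do not name, and it was used to rank peaks within the list. The median was 6.97 for ligand peaks (4.98 to 9.16, range 3.59 to 18.1) and 6.57 for receptor peaks (4.58 to 7.97, range 3.59 to 18.7), against 6.57 over all peaks, whose range was 3.39 to 68.1. In the upper 2 quartiles of score, there were 18 ligand peaks (66.7%, 47.8 to 81.4) and 18 receptor peaks (54.5%, 38 to 70.2), beside 51.6% of all peaks. With distance taken into account, peaks of receptors within 1000 bp of the TSS had a median score of 7.87 (n = 12) and those farther away 4.78 (n = 21). For ligands the medians were 10.7 (n = 4) and 6.97 (n = 23), and for all peaks 6.37 and 6.57.

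**Figure D3:**
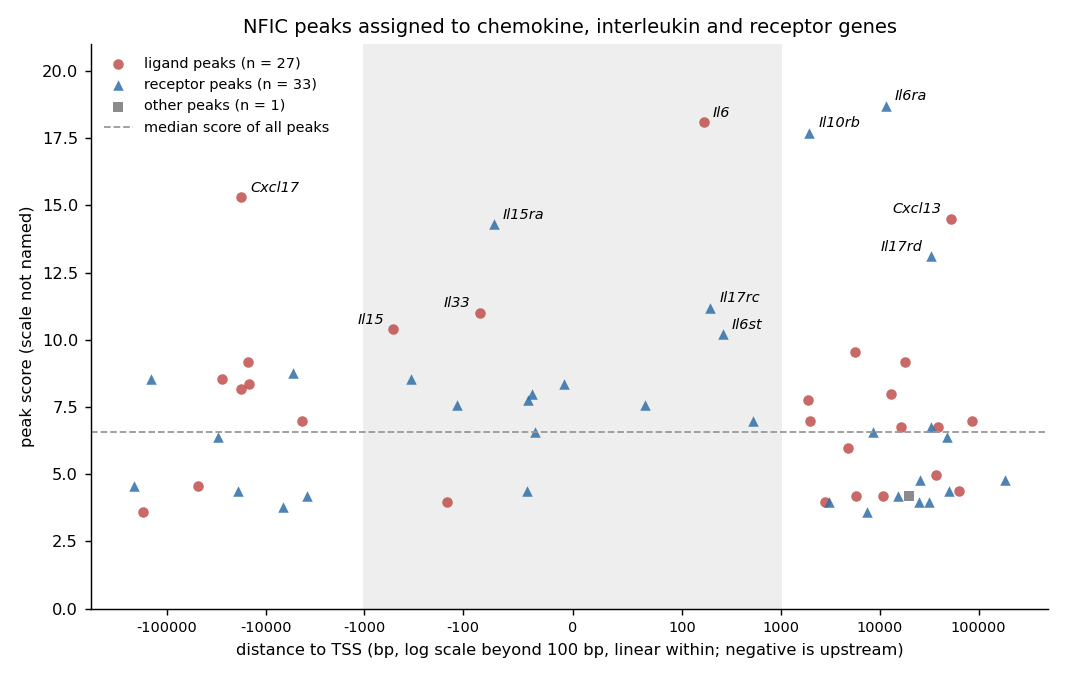
Peak score (scale not named in the sources) against the signed distance to the TSS (bp, log scale beyond 100 bp, linear within, negative upstream) for ligand (circles), receptor (triangles) and other (square) peaks. The grey band marks 1000 bp on either side of the TSS, the dashed line the median score of all peaks (6.57), and names are given to peaks with a score of 10 or more. The band holds 12 receptor peaks and 4 ligand peaks.

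Among the ligands, the peak with the highest score belonged to *Il6*, a cytokine of acute inflammation and of the acute phase response. Its only peak (chr5:30013192-30013364) lies at +164 bp in intron 1 of 4, and its score of 18.1 exceeds that of 97.1% of all peaks. The sequence printed above has both an exact NFI palindrome and a second match with 1 mismatch, which begin at bases 30013296 and 30013272 of chromosome 5. *Il6* was 1 of the 2 genes of the family with more than 1 such match in a single peak, the other being *Il12b*.

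*Il33*, an alarmin released from damaged cells that belongs to the IL-1 family, was bound at -85 bp with a score of 11.0 and a match with 1 mismatch. *Il15*, a cytokine that maintains natural killer and memory T cells, had a promoter peak at -507 bp (score 10.4) and another in intergenic sequence at -14615 bp (8.37). *Il7*, which supports lymphocyte survival, had a promoter peak at -145 bp with a score of 3.98, above 4.26% of all peaks, and the lowest focus ratio of the family (0.5, the fraction of a peak's tags that lie as its centre predicts). That peak also lies 333 bp downstream of a TSS of *Gm16685*. The promoter peaks of *Il15* and *Il33* thus had scores in the highest quartile (9.16 or more), and that of *Il7* had not.

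Other ligand genes had peaks only at a distance. *Il34*, a ligand of the CSF1 receptor that sustains macrophages, had the most peaks of the family (4), all in its first intron, at +1959, +12836, +36935 and +38463 bp with scores of 6.97, 7.97, 4.98 and 6.77. An NFI match was found in the 200 bp centred on each of these 4 peaks, and that at +1959 bp was exact. The match at +36935 bp begins at the last base of the peak and otherwise lies outside it. *Il12b*, the subunit shared by IL-12 and IL-23, had peaks in its introns 1 and 2 at +1862 and +5626 bp with scores of 7.77 and 9.56, and another at -173609 bp with a score of 3.59. *Il12a*, the other subunit of IL-12, had a peak at +17843 bp with a score of 9.16. *Il10*, an anti-inflammatory cytokine, had 3 peaks at +2801, +5778 and +10650 bp, whose scores of 3.98, 4.18 and 4.18 all fell in the lowest quartile. For *Il13*, a type 2 cytokine, the peak at -17939 bp (score 8.17) lies in intron 23 of 24 of the DNA repair gene *Rad50*. *Il5*, the eosinophil cytokine of the same cluster, had a peak at +16415 bp (6.77), and the peak of *Il17d* at -15083 bp (9.16) lies in intron 24 of 25 of *Ift88*.

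The chemokine ligands had 8 peaks at 7 genes, none closer than 4250 bp. *Cxcl17*, a chemokine of mucosal epithelia, had peaks at -17727 and -27721 bp with scores of 15.3 and 8.56, both in intron 4 of 6 of *4732471J01Rik*. The peak at -17727 bp had no NFI match, and that at -27721 bp had a match with 1 mismatch. *Cxcl13*, which attracts B cells, had a peak at +52287 bp with a score of 14.5, in which no NFI match was found. *Cxcl12*, a constitutive stromal chemokine, and *Ccl5*, which attracts T cells and monocytes, had a score of 6.97 each, at +86508 and -4250 bp, and both peaks had a match with 1 mismatch. *Ccl1*, *Ccl25* and *Ccl27a* had 1 peak each, with scores of 5.98, 4.38 and 4.58 at +4807, +63808 and -48666 bp. *Ccl27a* lies in a region of chromosome 4 with near-identical gene copies, so reads of this locus could be divided between copies and its value is uncertain. No peak was assigned to *Ccl7* or *Cxcl3*, nor to *Ccl2*, *Ccl20*, *Cxcl1*, *Cxcl2*, *Cxcl9* or *Cxcl10*. The merged list gives no signal outside its peaks, so binding below its threshold cannot be seen.

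**Figure D4:**
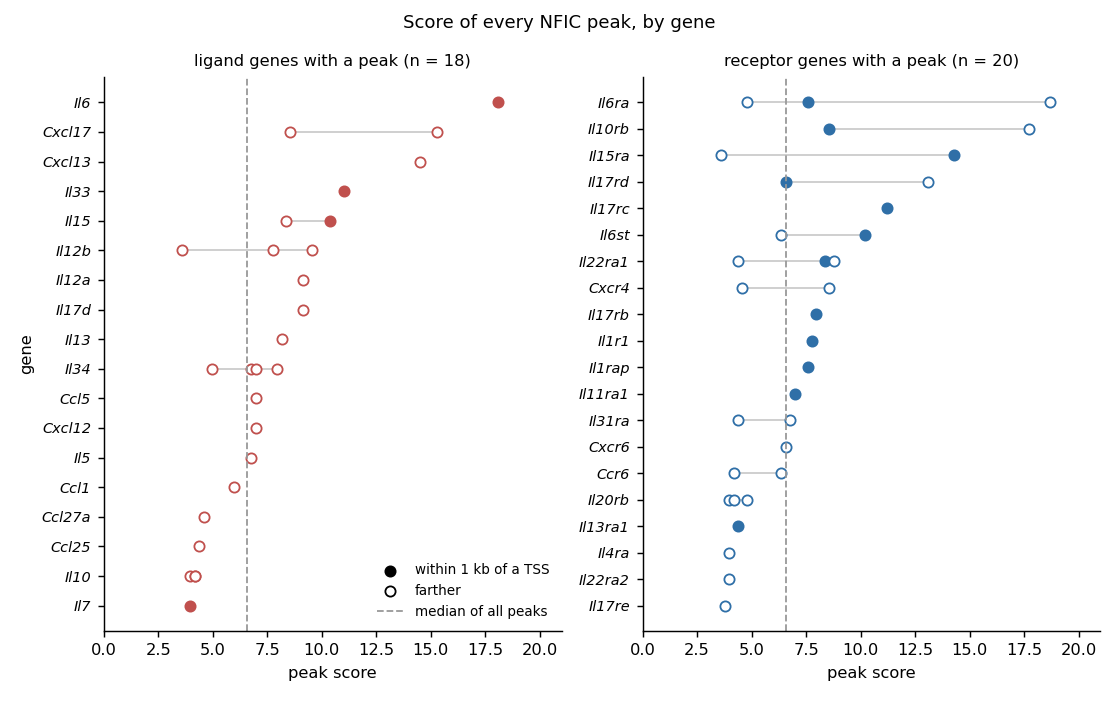
Score of every peak (horizontal axis, scale not named in the sources) for each ligand gene (left, n = 18) and receptor gene (right, n = 20) with a peak, ordered by the highest score of the gene. Filled points are peaks within 1 kb of a TSS, open points are farther, grey lines join peaks of 1 gene and the dashed line is the median of all peaks (6.57). *Il6* (18.1) and *Il6ra* (18.7) are at the top of the panels.

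Among the receptors, the highest score belonged to *Il6ra*, the ligand-binding chain for IL-6. Its strongest peak (chr3:89901601-89901773), at +11509 bp in intron 1 of 9, had a score of 18.7, above 97.5% of all peaks, and no NFI match. A second peak lies in the promoter at -116 bp with a score of 7.57, and another, scored 4.78, at +25589 bp. *Il6st*, which codes for the signalling chain gp130 shared by the IL-6 family, had a peak at +258 bp in intron 1 (score 10.2). Its other peak is intergenic at +47400 bp (score 6.37) and has an exact palindrome. The ligand and both receptor chains of IL-6 therefore had a peak within 1000 bp of the TSS. *Il11ra1*, the chain for IL-11, was bound at +522 bp with a score of 6.97, and a near-identical copy, *Il11ra2*, makes this value uncertain. *Il31ra* had peaks in its introns 6 and 14 of 16, at +32754 and +50611 bp with scores of 6.77 and 4.38.

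The IL-10 receptor family had peaks at 4 of 6 genes, beside 35.7% of all protein-coding genes. *Il10rb*, a chain shared by the receptors of IL-10 and IL-22, had a promoter peak at -336 bp with a score of 8.56 and another at +1921 bp in intron 2 of 6 with a score of 17.7, above 96.8% of all peaks. Both of these peaks had an exact palindrome, as printed above. *Il22ra1*, the epithelial chain of the IL-22 receptor, had the peak nearest to a TSS in the family, at -8 bp with a score of 8.37, and 2 peaks farther upstream at -5238 and -18864 bp with scores of 8.76 and 4.38. *Il22ra2*, a soluble IL-22 binding receptor counted here among the receptors rather than the binding proteins, had a weaker peak at +3021 bp (3.98). *Il20rb* had 3 peaks at +15346, +31745 and +184714 bp, with scores of 4.18, 3.98 and 4.78. *Il10ra* and *Il20ra* had no peak.

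Of the 5 genes of the IL-17 receptor family, 4 had a peak and 3 had one within 1000 bp of the TSS. Over all protein-coding genes these shares were 35.7% and 17.4%. Other interleukin receptor groups had lower shares. A peak was listed for 4 of 9 genes of the IL-6 and IL-12 receptors and 2 of 9 of the IL-1 receptors. It was listed for 2 of 8 of the common gamma chain receptors and 1 of 4 of the IL-13 and common beta chain receptors. *Il17rc*, a chain of the receptor for IL-17A and IL-17F, was bound at +191 bp with a score of 11.2, at a position that the annotation counts to the end of the neighbouring *Il17re*. *Il17rd* had a promoter peak at -34 bp with a score of 6.57 and another at +33224 bp in intron 1 of 12, scored 13.1, with an exact palindrome. *Il17rb*, the chain that binds IL-25, was bound at -37 bp with a score of 7.97. This peak also lies at -67 bp of *Chdh*, so it cannot be told apart which of the 2 genes it belongs to. *Il17re* had a peak at -6672 bp with a score of 3.78, and *Il17ra*, the common chain of the family, had none.

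Peaks at the TSS were also found at chains of the IL-15, IL-1 and IL-13 receptors. *Il15ra*, which presents IL-15, was bound at -72 bp with a score of 14.3, the highest of the promoter peaks of the family, and in intron 1 at +7456 bp with a score of 3.59. *Il1r1*, the signalling receptor of IL-1, was bound at -41 bp, with an exact palindrome and a score of 7.77, and *Il1rap*, its accessory chain, at +66 bp with a score of 7.57. The TSS used for the *Il1r1* peak, which starts at base 40266459, lies inside the gene, which spans bases 40222480 to 40316201 of chromosome 1. *Il13ra1* was bound at -42 bp with a score of 4.38, and *Il4ra*, its partner in the type II IL-4 receptor, had a peak in the 3′ UTR at +24877 bp with a score of 3.98. The common gamma chain *Il2rg*, *Il2ra*, *Il2rb*, *Il7r* and both IL-12 receptor chains, *Il12rb1* and *Il12rb2*, had no peak.

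Chemokine receptors had 5 peaks at 3 genes. *Cxcr4*, the receptor of CXCL12, had peaks at -146068 and -214174 bp with scores of 8.56 and 4.58. *Ccr6*, the receptor of CCL20, had peaks at -3835 and -30546 bp with scores of 4.18 and 6.37, both with an exact palindrome. The peak at -30546 bp is annotated to a simple repeat of the unit CAGG, so its palindrome may reflect the repeated letters. The peak of *Cxcr6* at +8558 bp (6.57) lies in intron 14 of 17 of *Fyco1*. Of these 5 peaks, 4 are intergenic. The only gene outside ligands and receptors with a peak was *Il18bp*, which codes for a soluble inhibitor of IL-18, and its peak at +19504 bp (4.18) lies in exon 14 of 25 of *Numa1*.

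Ligands with a peak were set beside the receptor chains known for them. Of the 18 ligand genes with a peak, 16 were paired with chains, and *Cxcl17* and *Il17d* were left out. Of these 16 ligands, 6 had a peak at 1 chain or more, and 2, *Il6* and *Cxcl12*, at all chains listed. Of all 58 receptor genes, 34.5% had a peak, and a ligand with several chains has more chances of a peak at 1 of them. For *Cxcl12* only 1 chain was listed, *Cxcr4*, whose peaks lie at -146068 and -214174 bp. For IL-15, *Il15ra* had a peak and *Il2rb* and *Il2rg* had none. For IL-33, the accessory chain *Il1rap* had one and *Il1rl1*, the specific receptor, had none. For IL-13, *Il13ra1* and *Il4ra* had a peak and *Il13ra2* had none, and for IL-10 *Il10rb* had one and *Il10ra* had none. No chain had a peak for *Il7*, *Il5*, *Il12a*, *Il12b*, *Il34*, *Ccl1*, *Ccl5*, *Ccl25*, *Ccl27a* or *Cxcl13*. These pairings were listed after the peaks had been seen and serve as a description.

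Many genes of the family lie in clusters of related genes. Of the 137 genes, 44 lie in 9 clusters of at least 3 family genes with gaps of up to 100 kb, and 6 of them had a peak (13.6%), against 33 of the 93 genes outside clusters (35.5%). Within the clusters and 10 kb on either side, 7 peaks fell in 1.82 Mb, which is 3.85 per Mb, beside 5.81 per Mb over the genome. No peak fell in 4 of the clusters, among them those that hold *Cxcl1*, *Cxcl2*, *Cxcl3*, *Cxcl5* and *Cxcl15* on chromosome 5, *Il1rn* on chromosome 2, and *Ccl19*, *Ccl21a*, *Ccl27b* and *Il11ra2* on chromosome 4. The last of these lies in the duplicated region named above. Among ligands, 5 of 29 genes within clusters had a peak (17.2%) and 13 of 44 outside (29.5%), and among receptors 1 of 12 (8.33%) and 19 of 46 (41.3%). Genes of a cluster share their surroundings and are not independent, and the part of clustering in the low share of chemokine genes was not tested.

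NFI matches were about as frequent in the family as in the whole list. In the 200 bp centred on each peak, TGGCNNNNNGCCA with at most 1 mismatch was found in 35 of 61 peaks (57.4%, 44.9 to 69), beside 51.8% of all peaks. Ligand peaks had it in 15 of 27 cases (55.6%) and receptor peaks in 19 of 33 (57.6%). The exact palindrome was found in 10 peaks (16.4%, 9.16 to 27.6), 3 of ligands and 7 of receptors, beside 13.4% of all peaks. The best match of each peak lay at a median of 23 bp from the peak centre, and within 30 bp in 24 of the 35 peaks. Peaks of the family with a match had a median score of 6.97 and those without 5.67, and over all peaks these medians were 7.17 and 5.98. Within 1000 bp of the TSS, 11 of the 16 peaks of the family had a match (68.8%, 44.4 to 85.8), and 39% of all such peaks did. The interval of the family lies above the value of all peaks here, in a comparison seen among several and without a test. As a reference for the letters themselves, 16.4% of 128 RefSeq promoter stretches of 300 bases at family genes, and 15.3% of 32851 promoters in all hold such a match.

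The remaining exact palindromes and the matches of *Il15*, *Il15ra* and *Il17rc* within 1000 bp of the TSS, where scores were above 10, are given as sites of 13 bases, with the arms in capitals, so that the spacers can be compared. The sites of these last genes have 1 mismatch each, and the peak of *Il6st* at +258 bp (10.2) had no match. The peak of *Ccr6* at -30546 bp is annotated to a simple repeat.
Il12b +1862, chr11:44401980-44401992: TGGCatgtaGCCA
Il34 +1959, chr8:110804002-110804014: TGGCtcattGCCA
Ccr6 -30546, chr17:8205492-8205504: TGGCaggcaGCCA
Ccr6 -3835, chr17:8232267-8232279: TGGCttagaGCCA
Il1r1 -41, chr1:40266536-40266548: TGGCactggGCCA
Il6st +47400, chr13:112511445-112511457: TGGCagcccGCCA
Il15 -507, chr8:82403057-82403069: GGGCagttgGCCA
Il15ra -72, chr2:11705238-11705250: AGGCaggcaGCCA
Il17rc +191, chr6:113471711-113471723: TGGCactggGCCG

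Other motifs were searched in the same windows on both strands as fixed letters. The single NFI arm TTGGCA, which overlaps the left arm of the palindrome, was found in 19 peaks (31.1%), beside 33.7% of all. The STAT motif TTCNNNGAA was found in 8 peaks (13.1%, 6.8 to 23.8), at *Cxcl17*, *Il34*, *Cxcr6*, *Il15ra*, *Il22ra1* and *Il4ra*, beside 5.54% of all peaks. For *Il15ra* it was in the peak in intron 1, and *Il34* and *Il22ra1* had it in 2 peaks each. E-boxes of the forms CAGATG and CAGCTG were found in 25 peaks (41%, 29.5 to 53.5), beside 32.5%. A motif for NF-kB was found in 4 peaks (6.56%), at *Ccl5*, *Ccl27a*, *Il12b* and *Il6st*, beside 4.36%. The GATA motif GATAAG was found in 7 peaks (11.5% beside 7.74%), the AP-1 motif TGACTCA or TGAGTCA in 3 (4.92% beside 3.65%), the ETS motif CCGGAAG in 2 (3.28% beside 3.55%), the SP motif GGGCGG in 10 (16.4% beside 21.1%) and the NR5A2 motif (CCAAGGCCA, CCAAGGTCA, TCAAGGCCA or TCAAGGTCA) in 4 (6.56% beside 3.64%). A match says only that these letters are in the window.

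The 4 ligand peaks within 1000 bp of the TSS had a median GC content of 56.8% (47 to 70) and a median of 4.5 CpG dinucleotides in 200 bp, and the 12 receptor peaks 66% (48.5 to 76.5) and 13.5. All peaks within this distance had medians of 65% and 15. The ranges of ligands and receptors overlap over most of their extent. Of the receptors, *Il13ra1* and *Il6st* had 25 CpG dinucleotides each and *Il10rb* had 2, the fewest.

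Genes that work with this family were described from lists chosen for their function. Of 30 related cytokines, chemokines and receptors outside the naming rule, 12 had a peak (40%, 24.6 to 57.7), beside 35.7% of all protein-coding genes, and 4 had one within 1000 bp of the TSS (13.3%), beside 17.4%. Both shares are near those of all genes. *Lifr*, the receptor chain for LIF that pairs with gp130, had 8 peaks, of which the highest score was 17.3 at +123553 bp and the closest lay at -191 bp with 14.7. *Cx3cl1*, a membrane-bound chemokine, had a peak at -983 bp with a score of 15.1, and *Csf1*, the other ligand of the CSF1 receptor, had 4 peaks with a highest score of 15.3 at -6494 bp. *Csf1r* itself had no peak.

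Of 42 genes that act in signalling below these receptors, 28 had a peak (66.7%, 51.6 to 79), and 14 had one within 1000 bp of the TSS (33.3%), beside the same 35.7% and 17.4% of all protein-coding genes. Their 49 peaks had a median score of 7.57. *Socs3*, a feedback inhibitor of gp130 signalling, had 5 peaks, of which the highest score was 21.5 at +32932 bp and the closest lay at -42 bp with 12.9. *Cish*, a related inhibitor, had 4 peaks with a highest score of 16.9 at +11447 bp. The STAT factors *Stat5a*, *Stat5b* and *Stat6* were bound at +96, -729 and -589 bp with scores of 13.5, 12.7 and 10.8, *Stat3* at -127 bp with 6.17, and *Stat2* had no peak. *Jak1* had 5 peaks, of which the highest score was 8.56 at -26873 bp and the closest lay at -27 bp with 4.18, and *Jak3* had none. The adaptor *Myd88* of the IL-1 receptor family was bound at +452 bp with a score of 9.16. Downstream of it, *Irak2* had a peak at +4490 bp with a score of 6.97, and *Irak1*, *Irak3*, *Irak4* and *Traf6* had none. *Traf3ip2*, the adaptor of IL-17 receptors, had its peaks at -45827 and -110462 bp. These lists were made with earlier results of the data known, and neither was tested against other genes.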

How the data were processed

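NFIC ChIP-Seq of wild-type pancreas (3 libraries) and input DNA (1 library) was represented by the merged peak list that the authors deposited on mm10. It holds, per peak, a score on a scale not named in the sources used here, a focus ratio (a deposited fraction of each peak's tags) and HOMER's annotation with the signed distance to the nearest TSS, as deposited. The submitters' processing notes name BWA, Picard and MACS2, and the paper names RUbioSeq+ and HOMER in a paragraph on downloaded data. Versions and thresholds are not given in the sources used here. The list has 0 columns of values per sample.

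Members were matched by gene name and set against RefSeq of GRCm38.p6, in which all 61 peaks had the same nearest gene and 59 the same distance within 1 bp. Protein-coding genes of the main chromosomes were matched to peaks by Entrez identifier, and those without expression in pancreas are included. Shares were counted with Wilson intervals. Motifs were searched in 200 bp around peak centres, and the search found 100% of sites planted in simulated sequence. The genes named are those with a promoter peak, the ligands and receptors with the most, highest-scoring and closest peaks (5 each, ties kept), genes of the other class, and chemokines that the paper names. Further genes were named after their values were seen. Members, roles, gene lists, alternatives and cluster definition were chosen with earlier results of these data known. Sequences were read from RefSeq's GRCm38.p6 genome. Computations used Python 3.11.15, numpy 2.4.6, pandas 2.3.3, scipy 1.17.1 and matplotlib 3.10.9.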

Additional observations from a re-analysis of the deposited data

How the results depend on the processing

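Of 49 alternatives over 17 counts, shares and medians, 44 gave a value within the interval of the main value or, for a count of genes or peaks, within 1.5 times it. With peaks of the upper 2 quartiles of score alone, 36 peaks of the family were left, and of the receptor peaks 44.4% were promoter-TSS and 11.1% intergenic. With only the closest peak of each gene, the median absolute distance of receptors was 297 bp, and that of ligands 9945 bp. With no mismatch allowed, 16.4% of the peaks of the family held the NFI palindrome. The cause of the shifts among receptor peaks was not tested. The recomputed nearest TSS, merging of neighbouring peaks, leaving out *Il1rapl1* and *Il1rapl2* or the genes with the most peaks, and promoter windows of -1000 to 100, -1000 to 1000 or -5000 bp to the TSS gave no other departure. No paired analysis was possible because no result comes from a test and the list has no values for single libraries. The unknown depth and threshold limit what can be said of genes without a peak.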
